A study of Homo sapiens with 7 samples.

Results

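The genes described here are 38 genes of homologous recombination, the Fanconi anaemia pathway and DNA damage signalling, measured on the 4 arrays of HCT116 cells treated with bafilomycin A1. They were chosen by name: all spots that were not array controls and whose gene name equalled one of the 38 symbols were taken, which gave 57 probes on 120 spots among 36337 gene names on the array. HCT116 is a human colon carcinoma cell line, labelled here as diploid, and the cells of every sample carried the fluorescent histone fusion H2B-GFP. Bafilomycin A1 blocks the vacuolar proton pump and thereby the acidification of lysosomes, and it was given at 10 nM for 30 h to 4 replicate cultures grown in medium with 10% serum. For each culture, 100 ng of total RNA were labelled with Cy3 and hybridised to 1 array. The series also lists 3 untreated H2B-GFP samples, which were not analysed here, so that every value below is a level in treated cells and none is a response to the drug.

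Homologous recombination mends broken chromosomes by copying the intact sister: the MRE11A, RAD50 and NBN proteins find and trim the break, BRCA1, PALB2 and BRCA2 prepare the trimmed strand for pairing with the sister, and helicases and nucleases take the joined molecules apart. The Fanconi anaemia proteins recognise cross-linked DNA, where a core complex attaches ubiquitin to the FANCD2 and FANCI pair. The kinases ATM and ATR, with CHEK2 and CHEK1 downstream, signal breaks and stalled forks to the cell cycle. Many of these genes are known to be transcribed mostly in the S and G2 phases.

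All 38 genes were detected, meaning that at least 1 probe of the gene was well above background on all 4 arrays, against 54.2% of all gene names. Signals are given as log2 of the background-subtracted signal relative to the median of the array over probes with a positive signal, so that 0 is the median of those probes, and a gene with several probes has their median. These values rank arrays for a gene but not genes against each other, because probes differ in how strongly they bind. On the arrays, 55.6 to 60.4% of the spots were well above background and no spot was saturated. With 4 arrays in 1 group the number of arrays limits the precision, and each error below is the SD over these 4 cultures. Of 10 marker genes of colon epithelium 8 were detected, including EPCAM and KRT19, while no array detected CDH17 or VIL1. Of the markers of other cells, 1 of 6 for fibroblasts, 5 of 6 for leukocytes and 2 of 5 for endothelium were detected.

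In most of the 38 genes replicate 1 read low and replicate 3 read high. Relative to its own mean over the arrays, the average gene of the 38 stood at -0.15, 0.08, 0.15 and -0.09 on the arrays of replicates 1 to 4, where the average of all 19689 detected genes stood at -0.02, 0.04, 0.06 and -0.08. With the software's processed signal scaled to the 75th percentile, with quantile normalization and with the median taken over all probes, the 38 genes stayed at -0.12, -0.08 and -0.24 on replicate 1 and at 0.08, 0.04 and 0.17 on replicate 3, while the value on replicate 4 turned to 0.02, 0.01 and 0.05. On replicate 4, these scalings moved the median of all detected genes by 0.11, 0.10 and 0.13. The 38 genes are therefore best read relative to all genes. In the scaling used here, the median of the 38 genes stood at -0.13, 0.09, 0.16 and -0.08 on replicates 1 to 4. The median of all detected genes stood at -0.03, 0.03, 0.10 and -0.10, so that replicate 3 differed less by medians than by averages. The lowest value fell on replicate 1 for 24 of the 38 genes, and for 27.5% of all detected genes. Of the remaining genes, 11 were lowest on replicate 4, 2 on replicate 3 and 1 on replicate 2, against 34.8%, 23.1% and 14.6% of all detected genes. The highest value fell on replicate 3 for 23 of the 38 and on replicate 2 for 12, and for 48.4% and 25.4% of all detected genes. It fell on replicate 1 for 2 genes and on replicate 4 for 1 gene, against 20.0% and 6.18%. Replicate 2 exceeded replicate 1 in 36 of the 38 genes, the exceptions being XRCC2 and EME1, and in 61.5% of all detected genes. The genes were measured in the same 4 RNA samples and are not independent of each other, so these counts describe 4 cultures and carry no test. In bulk RNA, fewer cells in a phase of the cell cycle and less RNA per cell cannot be told apart.

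**Figure D1:**
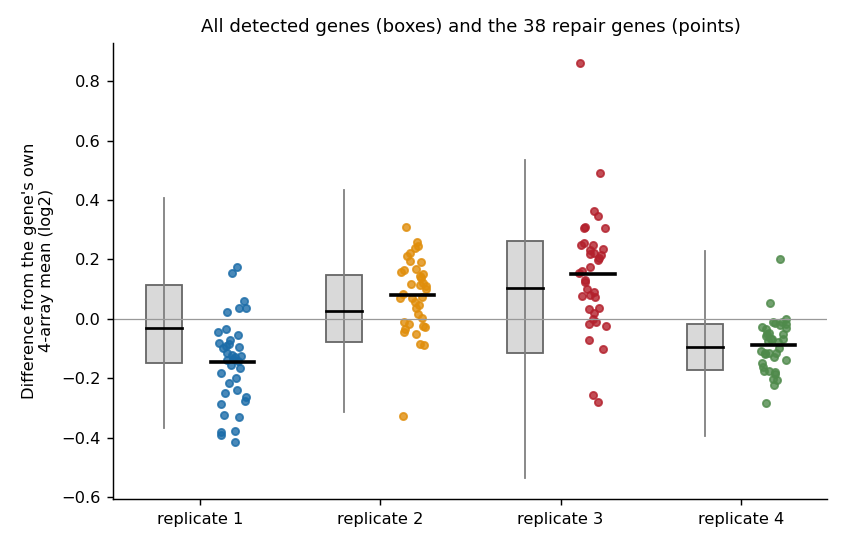
Difference of each gene from its own mean over the 4 arrays, in log2 units, by replicate culture. Grey boxes give the 25th, 50th and 75th percentile of the 19689 detected genes with lines from the 5th to the 95th percentile, coloured points are the 38 repair genes and black bars their mean, which lies at -0.15, 0.08, 0.15 and -0.09.

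Genes of neighbouring processes were also often lowest on replicate 1. Of 40 genes of DNA replication, all were detected, against 54.2% of all gene names. Among them 26 were lowest on replicate 1 and 10 on replicate 3, against 27.5% and 23.1% of all detected genes. Replicate 3 was highest for 22 and replicate 2 for 18, against 48.4% and 25.4%. The average of the 40 stood at -0.15, 0.14, 0.08 and -0.07 on replicates 1 to 4. Of 52 other genes of DNA repair and damage signalling, all were detected. In that list 29 were lowest on replicate 1 and 34 were highest on replicate 3, against 27.5% and 48.4% of all detected genes. The part that cell cycle distribution has in these differences was not tested. The 3 genes of that list with the largest SD were RNF8, RECQL5 and BRCC3, at 2.50, 1.28 and 0.65. The number of probes with a positive signal differed between arrays for all 3 of them, which was the case for none of the 38 genes.

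The median SD of the 38 genes was 0.17, against 0.21 over all detected genes, and 13 of the 38 differed by more than 1.4-fold between their highest and lowest array, against 45.6% of all detected genes. The count was 4 without replicate 3, 6 without replicate 1 and 2 after quantile normalization, where 21.6%, 36.7% and 14.0% of all detected genes passed the limit. At this limit, FANCI lay just inside at 1.41-fold and FANCD2 just outside at 1.39-fold. The largest SD belonged to NBN and, in this scaling, the smallest to EME1.

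**Figure D2:**
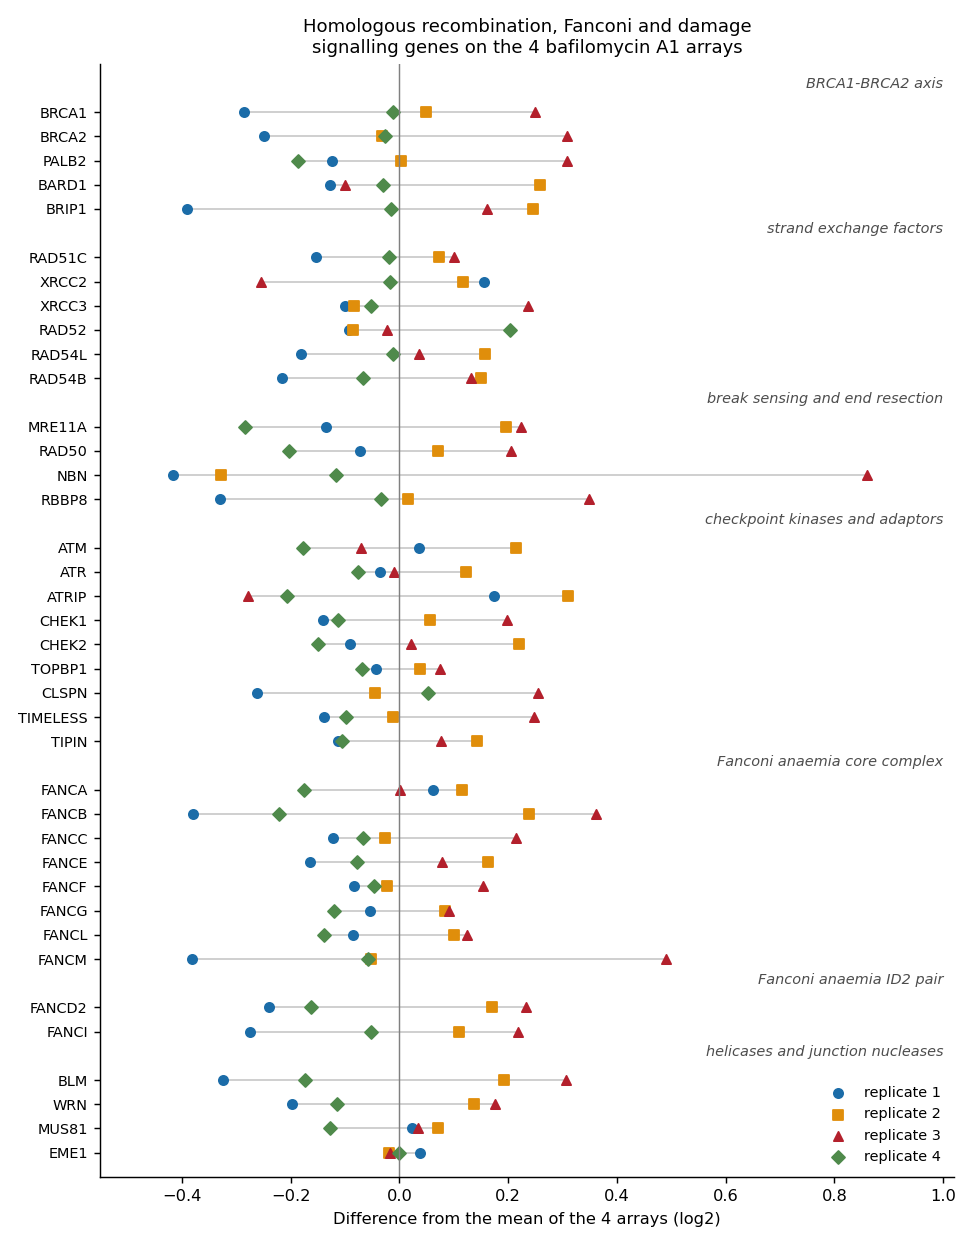
Each of the 38 genes by role, with its difference from its own 4-array mean in log2 units on the horizontal axis and 1 marker per replicate culture. Replicate 1 is the lowest in 24 genes and replicate 3 the highest in 23, and the widest line is that of NBN, which spans 2.42-fold.

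All 4 genes of break sensing and end resection were highest on replicate 3, where 48.4% of all detected genes were highest. NBN, the subunit that brings the MRE11A complex together with ATM, read 1.69, 1.78, 2.97 and 1.99 on replicates 1 to 4. The 3 lower cultures lay within 0.30 of each other in log2 units, and replicate 3 lay above them all, so that the array values spanned 2.42-fold with an SD of 0.59. This SD is higher than that of 92.7% of the detected genes. The NBN signal rests on 1 probe with 1 spot on each array, with background-subtracted intensities of 249.7, 240.9, 549.7 and 252.4. Replicate 3 remained the highest with the signal processed by the scanner software, at 2.29-fold, and after quantile normalization, at 1.90-fold.

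The partners of NBN moved less. RAD50, the coiled-coil ATPase that tethers DNA ends, read 3.56, 3.70, 3.84 and 3.43. MRE11A, the nuclease, read 1.26, 1.59, 1.62 and 1.11, a span of 1.42-fold. RBBP8, which encodes CtIP and starts end resection, read 5.42, 5.77, 6.10 and 5.71. Replicate 3 was highest in each of them, but RAD50 and MRE11A were lowest on replicate 4 and RBBP8 on replicate 1.

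In the BRCA1 and BRCA2 group, 4 of 5 genes spanned more than 1.4-fold and 4 of 5 were lowest on replicate 1, against 45.6% and 27.5% of all detected genes. BRCA1, the ubiquitin ligase that promotes resection, read 2.34, 2.67, 2.87 and 2.61. BRCA2, which acts on the single-stranded DNA that resection leaves, read -1.49, -1.27, -0.93 and -1.27. PALB2, the bridge between both proteins, read 1.16, 1.29, 1.59 and 1.10. Replicate 3 was the highest for these 3 genes. BRIP1, a helicase that binds BRCA1, read -0.33, 0.31, 0.22 and 0.05, with replicate 1 lowest and replicate 2 highest. BARD1, the partner of BRCA1 in the ligase, did not span 1.4-fold and had a mean of 1.44 ± 0.18 (SD, n = 4).

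The spots printed more than once on each array give a measure of the spread within an array. For 7 of the 38 genes, BRCA1, BRCA2, RAD54B, RAD50, ATM, FANCA and WRN, 1 probe was printed as 10 spots. For BRCA1 the spot means were 2.33, 2.66, 2.87 and 2.61, with a mean SD of 0.12 between spots and a mean standard error of 0.04, while the SD between arrays was 0.22. Over the 7 probes the SD between arrays was 2.65 to 6.69 times the mean standard error of the spots, lowest for BRCA2 and highest for RAD54B. For BRCA2 and ATM the SD between arrays, 0.24 and 0.18, was below the mean SD between single spots, 0.28 and 0.19. For RAD50, the same spot was highest and the same spot lowest on replicates 1, 2 and 3. The SD and standard error between spots can therefore include differences between spot places that the arrays share. Labelling and hybridisation were done once per culture, so their error cannot be told apart from a difference between cultures.

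The BRCA2 probe lay close to background. Its spots had background-subtracted intensities of 16.3 to 46.8, the SD between spots averaged 0.28, and the SD between arrays was 0.24. On replicates 1 to 4, 8 of 9, 9 of 10, 10 of 10 and 9 of 10 spots used were well above background. A further spot on replicate 1, with an intensity of 192, was marked as outlying by the scanner software and left out.

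**Figure D3:**
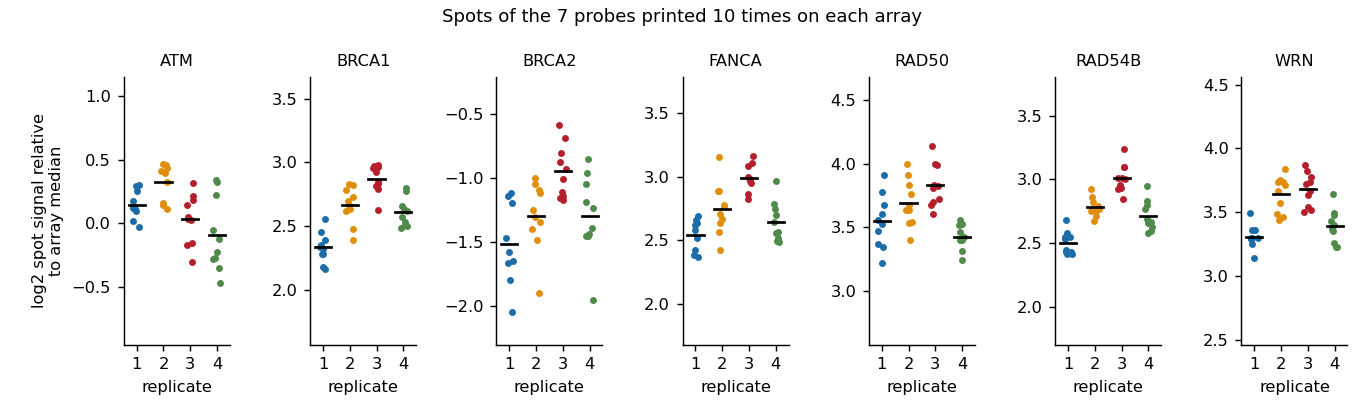
Single spots of the 7 probes printed 10 times per array, as log2 signal relative to the array median, by replicate culture, with black bars for the spot mean. The vertical axes have equal length but different centres. Spots of BRCA1 on replicates 1 and 3 do not overlap, and those of BRCA2 do.

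None of the 6 factors of strand exchange spanned more than 1.4-fold, against 45.6% of all detected genes. XRCC3, which acts in strand exchange, read 6.51, 6.52, 6.84 and 6.56, and replicate 3 lay apart from the other cultures, which is so for 1 of the 38 genes and for 7.94% of all detected genes. Its probes, which match different transcript models on the minus strand of chromosome 14, were both highest on replicate 3: the probe designed on the RefSeq transcript read 3.88, 4.01, 4.26 and 3.89, and the probe on an Ensembl transcript read 9.14, 9.04, 9.42 and 9.23. RAD52, which anneals single strands, has probes that disagreed. The probe designed on the RefSeq transcript read 2.62, 2.59, 3.03 and 2.59, with replicate 3 highest, and the other read 0.22, 0.26, -0.04 and 0.84, with replicate 3 lowest, so that their median, 1.51 ± 0.14 (SD, n = 4), is set by opposite patterns. The other 4 factors had means of 5.76 ± 0.11 for RAD51C and 0.50 ± 0.19 for XRCC2, which act in one complex, and of 4.29 ± 0.14 for RAD54L and 1.03 ± 0.17 for RAD54B, both DNA-dependent motor ATPases (SD, n = 4). XRCC2 was lowest on replicate 3, unlike the other 5.

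Because probes of the same gene gave different orders of the cultures, the central 30 bases of the ATR and RAD52 probes are shown, with the positions that the array annotation gives on GRCh37. These stretches are bases 16 to 45 of 60-base probes, 5′ to 3′ on the strand of the transcript, in lower case throughout because no base is singled out. The array annotation of these probes names the transcript but not the exon.
ATR probe highest on replicate 3, chr3:142168379-142168408, minus strand: caaggtgtaatcaagactcgaaatagagtg
ATR probe lowest on replicate 3, chr3:142185182-142185211, minus strand: accatttcctggacattgggcctatattgc
RAD52 probe highest on replicate 3, chr12:1022183-1022212, minus strand: gacttggtcctaagcacctgcctcagcaat
RAD52 probe lowest on replicate 3, chr12:1038990-1039019, minus strand: tgggagtctgtgcatttgtgagggtccagc

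Among the checkpoint kinases, ATR showed the same contrast. ATR, the kinase that answers to single-stranded DNA at stalled forks, read 2.22, 2.38, 2.24 and 2.18 as the median of its probes, a small SD of 0.09. Its probes were both designed on 1 transcript, and they read 3.36, 3.47, 3.81 and 3.57 for the one listed first above and 1.08, 1.28, 0.68 and 0.79 for its neighbour in that list. Replicate 3 was thus the highest culture by 1 probe and the lowest by the other, and the small SD is that of their median. ATRIP, the obligate partner of ATR, read 1.50, 1.63, 1.04 and 1.12, a span of 1.50-fold. Both ATRIP probes cross an exon junction, both were highest on replicate 2, and replicates 3 and 4 were the lower cultures by either probe, which set ATRIP apart from the more frequent order in these genes.

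ATM, the kinase that answers to broken ends, read 0.15, 0.33, 0.05 and -0.06. Replicate 2 was the highest on all 3 ATM probes, of which 1 was well above background on 2 arrays only. That probe counted in the median, and without it the mean level of ATM was 0.55 in place of 0.12. CHEK1, the kinase below ATR, read 3.46, 3.66, 3.80 and 3.49, and was lowest on replicate 1. CHEK2, the kinase below ATM, has 6 probes, all detected on all arrays, and read 2.36, 2.67, 2.47 and 2.30. Of its probes 3 were highest on replicate 2 and 3 on replicate 3.

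The fork proteins completed this group. CLSPN, the adaptor that lets ATR activate CHEK1, read -0.25, -0.03, 0.27 and 0.07, a span of 1.43-fold with replicate 1 lowest and replicate 3 highest. TOPBP1, the activator of ATR, read 3.07, 3.15, 3.19 and 3.05, one of the 5 smallest SDs of the 38 genes at 0.07. TIMELESS and TIPIN, the pair that protects the moving fork, had means of 6.19 ± 0.17 and 4.54 ± 0.13 (SD, n = 4).

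**Figure D4:**
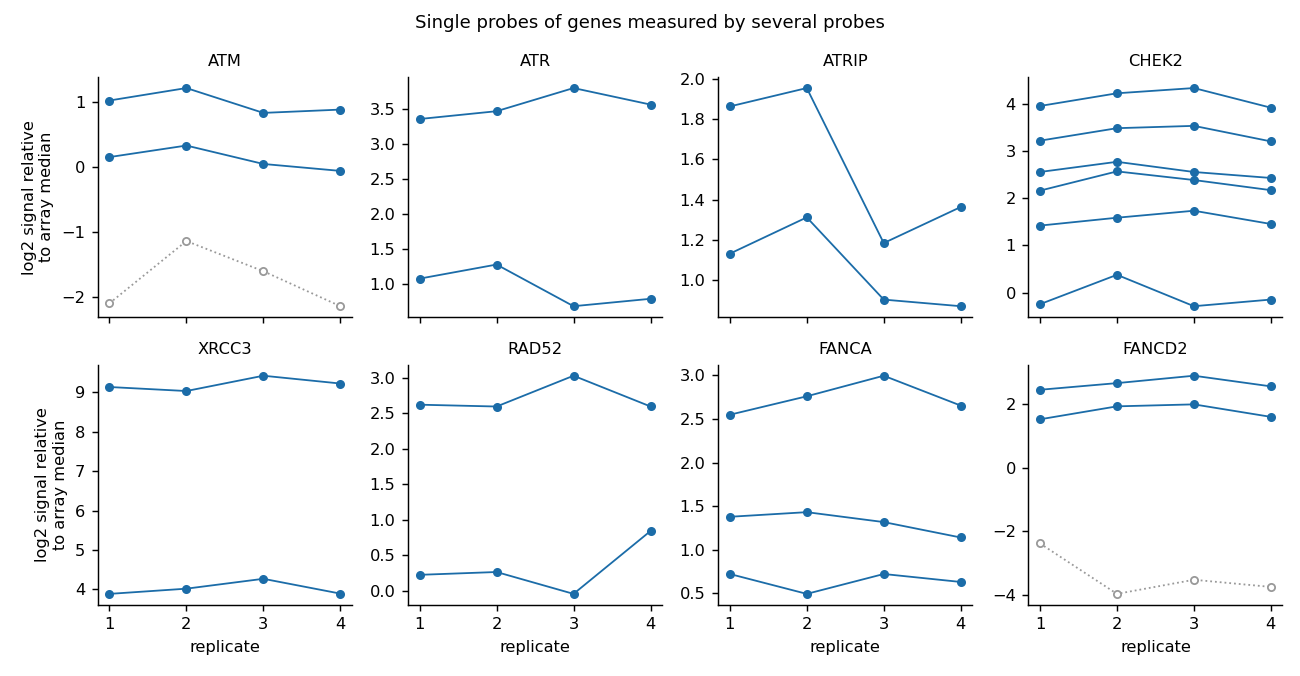
Log2 signal relative to the array median of the single probes of 8 genes measured by several probes, with the replicate culture on the horizontal axis and a separate vertical scale for each gene. Solid lines are probes well above background on all 4 arrays, and dotted grey lines with open circles are the ATM and FANCD2 probes that were not. The ATR probes run in opposite directions on replicate 3, and the XRCC3 probes in the same direction.

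Of the repair genes described here, 12 had several detected probes. These probes had their highest value on the same array in 6 genes and on different arrays in the other 6. The share among all genes on the array with several detected probes was not computed. Whether such disagreement is particular to these genes was therefore not tested.

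In the Fanconi anaemia core complex, 2 of 8 genes spanned more than 1.4-fold, against 45.6% of all detected genes. On replicate 4 none of the 8 and 2 of the 38 genes were above their own mean, as were 21.4% of all detected genes. This count rested on the scaling, since 3, 4 and 5 of the 8 were above their mean with the processed signal, with quantile normalization and with the median over all probes, against 55.9%, 51.2% and 63.9% of all detected genes. FANCM, the DNA translocase that recruits the complex to a stalled fork, read 2.24, 2.57, 3.11 and 2.56. Replicate 3 was highest and replicate 1 lowest, a span of 1.83-fold, and the span was 1.54-fold after quantile normalization, where NBN and FANCM were the 2 genes still above 1.4-fold. FANCB, the X-linked subunit, read -0.20, 0.42, 0.54 and -0.04, so that replicates 2 and 3 lay above replicates 1 and 4 by 0.46 or more in log2 units. FANCL, the ubiquitin ligase subunit, had a mean of 3.20 ± 0.13 (SD, n = 4). FANCG, a scaffold subunit, read 5.44, 5.58, 5.59 and 5.38, with one of the smallest SDs at 0.10. The remaining subunits FANCA, FANCC, FANCE and FANCF had SDs of 0.13, 0.15, 0.15 and 0.10.

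The proteins that the complex modifies were both lowest on replicate 1 and highest on replicate 3. FANCI read 4.66, 5.05, 5.16 and 4.89. FANCD2 read 1.53, 1.94, 2.00 and 1.61, and its SD was 0.24 against 0.21 for FANCI. Of the 3 FANCD2 probes, the one designed on a separate transcript model was detected on none of the arrays. The other probes were both lowest on replicate 1 and highest on replicate 3. Because the undetected probe counted in the median, the FANCD2 values are those of the weaker detected probe. The stronger one had an SD of 0.19, below that of FANCI. Without the undetected probe the mean level of FANCD2 was 2.21 in place of 1.77.

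The 4 helicases and junction nucleases had SDs from 0.03 to 0.30. BLM, the helicase that dissolves double Holliday junctions, read 3.13, 3.65, 3.76 and 3.28, a span of 1.55-fold, with replicates 2 and 3 above replicates 1 and 4. WRN, the related helicase, was also lowest on replicate 1 and highest on replicate 3, with a mean of 3.51 ± 0.18 (SD, n = 4). MUS81, the nuclease subunit that cuts branched DNA, read 4.76, 4.80, 4.77 and 4.61. EME1, its partner, read 1.77, 1.71, 1.71 and 1.73, the smallest SD of the 38 genes at 0.03, which 0.132% of the detected genes fell below. EME1 rests on 1 probe with 1 spot per array, and its rank depended on the scaling. Its SD was 0.10, 0.07 and 0.10 with the processed signal, quantile normalization and the median over all probes. The smallest SDs were then those of FANCG, TOPBP1 and FANCA, at 0.02, 0.03 and 0.04. In the scaling used here, MUS81 and EME1 did not share the low reading on replicate 1 that BLM and WRN had. With the median over all probes, MUS81 was lowest on replicate 1 too.

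**Figure D5:**
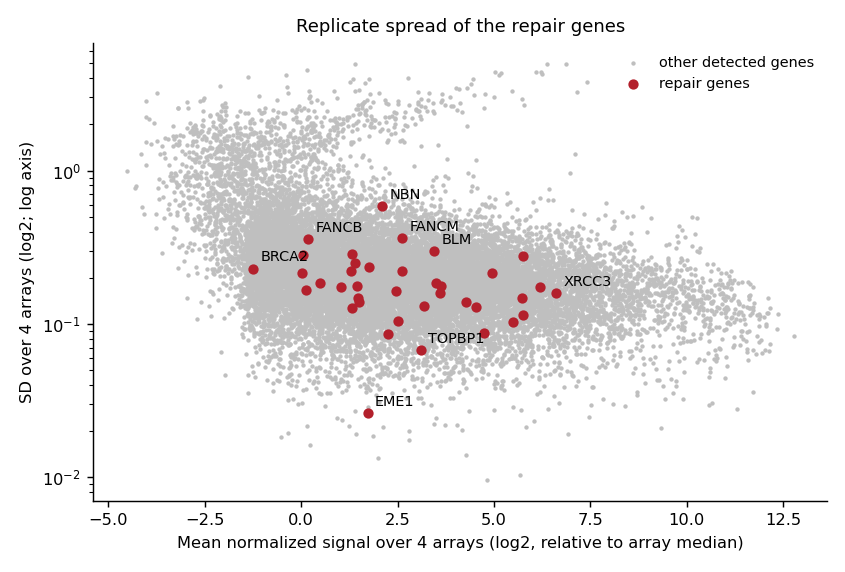
SD over the 4 arrays (log2, on a log axis) against mean normalized signal of all 19689 detected genes, with the 38 repair genes in red and 8 of them named. NBN has the largest SD of the 38 at 0.59 and, in the scaling shown, EME1 the smallest at 0.03.

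Because most of these genes were lowest on the same array, their promoters were read for short words linked to cell cycle transcription. Promoters, running from 250 bases before to 50 bases after the annotated start on GRCh38.p14 in RefSeq, were matched for 34 of the 38 genes, MRE11A under its current symbol MRE11, and there was no entry for FANCI, NBN, RAD54B and WRN. The E2F words TTTCCCGC, TTTGGCGC, TTTCGCGC and TTTGCCGC, sought on both strands, were present in 6 of 34 promoters (17.6%), those of XRCC2, TOPBP1, CLSPN, FANCA, FANCC and FANCD2. They were present in 3.31% of 35116 RefSeq promoters of the same length and in 4.10% of the 22199 of protein-coding genes. The word CCAAT was present in 17 of 34 (50%) and in 34.6% of all promoters, or 34.7% of the protein-coding ones. The CHR words TTTGAA and TTCGAA were present in 3 of 34 (8.82%) and in 16.4% of all, or 13.7% of the protein-coding ones. The GC box GGGCGG was present in 26 of 34 (76.5%) and in 45.0% of all, or 56.3% of the protein-coding ones. Words may overlap, as a GC box does with a CCAAT word and with the E2F word of CLSPN. A match describes letters in a window and not a bound site. The promoters of FANCD2, CLSPN and TOPBP1 are shown because their E2F word lies nearest to the annotated start, and capitals mark E2F and CCAAT words.
FANCD2, chr3:10026187-10026486, plus strand: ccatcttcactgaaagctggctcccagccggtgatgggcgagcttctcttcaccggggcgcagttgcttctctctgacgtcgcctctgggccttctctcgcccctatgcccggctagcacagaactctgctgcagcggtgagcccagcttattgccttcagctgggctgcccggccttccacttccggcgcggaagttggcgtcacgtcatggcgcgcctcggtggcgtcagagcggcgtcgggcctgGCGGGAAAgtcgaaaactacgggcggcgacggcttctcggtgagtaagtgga
CLSPN, chr1:35769929-35770228, minus strand: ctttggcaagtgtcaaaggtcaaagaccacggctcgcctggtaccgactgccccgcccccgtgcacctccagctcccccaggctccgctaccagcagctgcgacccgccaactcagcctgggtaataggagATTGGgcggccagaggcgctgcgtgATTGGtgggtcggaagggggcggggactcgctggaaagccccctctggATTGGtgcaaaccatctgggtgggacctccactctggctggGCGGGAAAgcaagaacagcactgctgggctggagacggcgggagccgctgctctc
TOPBP1, chr3:133661892-133662191, minus strand: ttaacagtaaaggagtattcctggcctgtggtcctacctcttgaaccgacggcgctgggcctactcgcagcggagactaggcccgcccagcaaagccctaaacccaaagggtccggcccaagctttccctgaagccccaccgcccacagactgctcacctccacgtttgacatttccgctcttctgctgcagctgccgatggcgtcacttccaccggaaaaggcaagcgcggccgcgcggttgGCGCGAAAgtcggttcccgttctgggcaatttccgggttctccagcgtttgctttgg

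By the gene values used here, the genes that carried an E2F word did not share an order of the cultures. CLSPN, FANCC and FANCD2 were lowest on replicate 1 and highest on replicate 3. XRCC2 was highest on replicate 1, and FANCA and TOPBP1 were lowest on replicate 4. The order was not stable for XRCC2, FANCA and TOPBP1. XRCC2 was highest on replicate 4 with the median over all probes. The FANCA probe printed as 10 spots read 2.55, 2.76, 3.00 and 2.65, lowest on replicate 1 and highest on replicate 3. TOPBP1 was highest on replicate 4 with the processed signal and lowest on replicate 1 with the median over all probes.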

How the data were processed

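The authors deposited Agilent Feature Extraction 10.7.3.1 output for 1-colour arrays of 4 bafilomycin A1-treated HCT116 H2B-GFP cultures, with 58717 spots that are no controls and 50599 probes per array. Background subtraction was done by that software, and each deposited intensity is linear. The deposited p-value per spot, by which the software compares a spot with its background, was read but gave no result here. As in the study's methods, the log2 of the background-subtracted signal was taken, each array was centred on its median, and several probes of a gene were replaced by their median. Averaging the spots of a probe and leaving out signals at or below 0, also from the array median, were chosen here (Python 3.11.15, numpy 2.4.6, pandas 2.3.3). Detection used the software's flag for a signal well above background, which had to be set on over 50% of a probe's spots, and a gene was detected where at least 1 probe was detected on all 4 arrays. Spots that the software marked as outlying, 275 to 410 per array, were left out. Spots whose surrounding background ring alone was marked were kept, because the subtracted background equalled the fitted surface on 100% of spots. Marked rings were uneven between arrays, with 189, 459, 1916 and 118 on replicates 1 to 4, most on replicate 3. An array stood apart where its gap to the nearest array passed the critical value of Dixon's ratio test.

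The labels say that the 4 cultures are biological replicates. The arrays form 1 group, so that no test between groups was made and no p-value is given. The genes, the lists and the promoter words were chosen with earlier results of these data known. All genes were accounted for by role. Values on every array are given for genes spanning over 1.4-fold, genes with an array apart, the 5 smallest SDs and 12 genes fixed by name. Of the other repair genes, the 3 with the largest SD are named, and 1 gene that the rule also names is not reported here. Alternatives were the software's processed signal, normexp with an offset of 50 and quantile normalization (limma 3.58.1, R 4.3.3), other filters and summaries, and leaving out each array. The scripts were tested on simulated data. The slide cannot be told apart from the group, since all arrays are on 1 slide.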

Additional observations from a re-analysis of the deposited data

Results flagged for a closer look

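XRCC3 had 1 culture apart by the median of its probes, though by neither probe alone: replicate 3 read 6.84 on the log2 scale, against 6.51, 6.52 and 6.56 on replicates 1, 2 and 4. Replicate 3 stayed highest with the processed signal, with quantile normalization and with the median over all probes. Its gap to the nearest array was then 0.343, 0.398 and 0.389 of the whole range, against 0.858 here.

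The RAD52 probe designed on the RefSeq transcript read 3.03 on replicate 3, against 2.62, 2.59 and 2.59 on the other cultures, while the other RAD52 probe was lowest on replicate 3. Genes, single probes of genes with several, list averages and the share of spots above background were examined in this way, 85 values in all. Of these, 2 stood apart, where chance sets apart about 5% of groups. Most of the 52 other repair genes were not among the 85. In that list 6 genes had an array apart, against 7.94% of all detected genes.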

How the results depend on the processing

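All 38 genes were detected in each setting except 2, with 36 where all probes of a gene had to be well above background and 37 where ring outliers were left out, and the direction of their average on replicates 1, 2 and 3 held in each setting with all arrays. With the processed signal at the 75th percentile, 8 genes spanned over 1.4-fold, the median SD was 0.138, the SD of the average 0.0845, 6 genes had an array apart, and the average on replicate 4 was 0.0196. With normexp and quantile normalization the values were 2 genes, 0.0953, 0.0523, 4 genes and 0.00571, and with the median over all probes, the median SD was 0.201, the SD of the average 0.172, 4 genes had an array apart, replicate 4 was at 0.0456 and all 38 levels were higher by 1.08. Of all detected genes, 38.1%, 14.0% and 49.8% spanned over 1.4-fold and 6.39%, 6.15% and 5.88% had an array apart in these settings. Under these 3 settings replicate 1 was lowest for 24, 19 and 34 genes, and for 26.6%, 26.2% and 48.3% of all detected genes. Without 1 array in turn, the genes over 1.4-fold numbered 4 (without replicate 3) to 12, with 6 without replicate 1, and 21.6 to 38.7% of all detected genes passed this limit. The median SD was 0.154 to 0.193, and the SD of the average 0.118 to 0.158. The cause of these differences was not tested. Of 117 summary values compared, 99 were counted as unchanged by loose limits. Counts were allowed a fixed ratio. The average on an array was allowed a shift below 0.14, the SD of the average, which is of the size of the averages themselves. Only the median SD and the SD of the average were held against their spread on leaving out 1 array in turn. Leaving out spots with a marked background ring as well, an alternative chosen after seeing the data like the counts on replicate 1 and the average without NBN, removed RAD51C and left 19083 detected genes.

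No paired analysis was possible because the untreated samples were not analysed here. Signal over background bears on BRCA2. Low signal also bears on FANCB, BRIP1 and CLSPN, whose background-subtracted intensities were 61.5 to 102. It bears on ATM as well, where the probe that set the gene values read 60.8 to 88.2 and the weakest 14.3 to 31.8. The RAD52 probe lowest on replicate 3 read 68.1 to 114, and the weaker RAD54B probe 36.8 to 52.6. Single probes of CHEK2 and FANCC were about as low. NBN rests on 1 spot per array. Among genes over 1.4-fold, the same holds for PALB2, BRIP1, MRE11A, RBBP8, CLSPN, FANCB, FANCM, FANCI and BLM.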
